A study of Mus musculus with 6 samples.

Results

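Livers of mice kept on a fast-food diet for 5 months were compared with livers of mice kept on chow for 5 months, over all genes of 1 microarray per side. These are 2 of the 6 arrays of the series, chosen by their labels and not by any measured value. All animals of both groups were male C57BL6/J mice, an inbred strain, aged 6 to 8 weeks at the start, and no mutant or transgene is named for either group. The fast-food group ate a diet with 21% fat by weight, which supplied 42% of its energy, together with 34% sucrose by weight and 0.2% cholesterol, and drank water with 18.9 g/L glucose and 23.1 g/L fructose. These mice were also injected with the vehicle, phosphate-buffered saline, on 5 days per week over the last 5 weeks. The labels name no injection for the chow group, so diet and injection cannot be told apart. Each array held a pool of RNA from 3 to 4 livers, so the spread between animals within a group was not measured. The other arrays were the same pair of diets at 2 months and the fast-food diet with canertinib, an inhibitor of ERBB receptor kinases, at either time. No injection is named for the fast-food group at 2 months. Time on the diet and injection therefore cannot be told apart where 2 and 5 months are set side by side.

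A long surplus of fat, sugar and cholesterol loads the liver with triglyceride and sterol. Hepatocytes answer dietary cholesterol by retaining the transcription factor SREBP2 in the endoplasmic reticulum, which lowers transcription of the enzymes that make cholesterol. In steatohepatitis, macrophages that take up lipid gather in the tissue, and hepatic stellate cells, the vitamin A-storing pericytes of the sinusoids, turn into cells that secrete collagen.

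Each side was 1 array, so sizes are given without an error or a test, and the number of arrays limits their precision. Signals are intensities on a linear scale in the authors' units, and log2 differences are fast food minus chow after signals were raised to a floor of 221.4. Where a gene lay at the floor on 1 of the arrays, its difference is a bound and is written as "at least". The yardstick for a difference without the diet is the pair of chow arrays, which also differ by the length of the study, and which share the 5-month chow array with the comparison. A gene's difference between the chow arrays, 5 months minus 2 months, had a robust SD of 0.31 on the log2 scale, and the shares of genes with a gap of 2-fold or more there were 1.28% (higher at 5 months) and 1.32% (lower). The arrays had 84.3% to 86.6% of measured genes above the floor. Spiked control transcripts were lower on the fast-food array than on the chow array, with a mean log2 difference of -0.30. The ratio of the 3′ to the 5′ probe sets, a sign of RNA quality, was 0.85 on chow and 0.98 on fast food for actin and -0.09 and -0.22 for Gapdh, as log2.

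Both arrays carried the genes that define liver tissue. The signal of Alb, the albumin gene, was 70172 on chow and 55464 on fast food, and that of Ttr, the transthyretin gene, was 68106 and 56693. Markers of exocrine pancreas, erythroid cells and skeletal muscle gave no list with more than 1 member at least 2-fold different. Hba-a1, a haemoglobin gene, had signals of 156 and 307, and Ckm, the muscle creatine kinase gene, had 272 and 220.

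Of 13989 measured genes, 381 were at least 2-fold higher on fast food, which is 2.72%, and 256 were at least 2-fold lower, which is 1.83%. The counts given for each gene list below are to be read beside these shares. In 105 of the higher genes chow was at the floor, and in 58 of the lower genes fast food was at the floor. At a threshold of 4-fold, 48 genes were higher and 27 lower, and at 8-fold 4 were higher and 7 lower. The median log2 difference over all measured genes was 0.00, and 49.1% of them were lower on fast food by any amount. The higher genes came from a lower range of signal than the lower ones. Their median signal was 339 on chow and 924 on fast food, whereas the genes that were lower had medians of 1001 and 410.3.

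**Figure D1:**
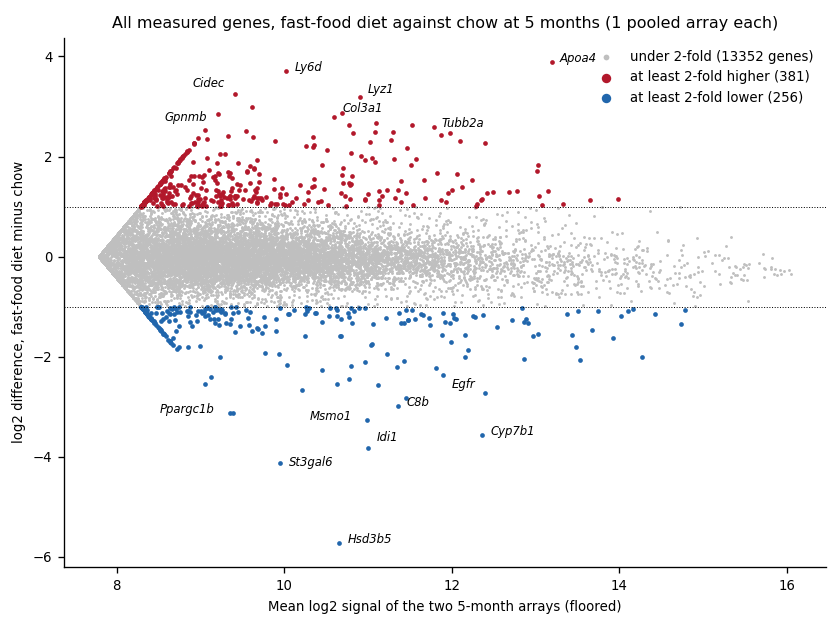
Each point is 1 of 13989 measured genes, with the mean log2 signal of both 5-month arrays across and the log2 difference, fast food minus chow, up the side; red marks the 381 genes at least 2-fold higher and blue the 256 at least 2-fold lower, and dotted lines mark 2-fold. The diagonal edges on the left are genes at the floor on 1 array, Apoa4 (3.90) is the highest point and Hsd3b5 (-5.73, a bound) the lowest.

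Genes of lipid transport, macrophages, annexins, galectins and matrix led the higher side. Apoa4 encodes an apolipoprotein that travels on triglyceride-rich particles and had a signal of 2429 on chow and 36178 on fast food, a 14.9-fold difference, on its brightest probe set, which is of a type that can cross-hybridise. Its other probe set had 887.5 and 38434, a 43.3-fold difference. Ly6d, which encodes a small membrane-anchored protein, had 288 and 3782, a 13.2-fold difference. Lyz1, a lysozyme gene, had 633 and 5806, but only 2 of its 3 probe sets above the floor were higher, both of a type that can cross-hybridise, and the third had a log2 difference of -0.26. Beyond these, Lgals3, the galectin gene of activated macrophages, had 279 and 2222, and Lcn2, which encodes an iron-scavenging acute phase protein, had 609 and 4481. Lcn2 was below the floor on the 2-month chow array, at 130.0, so the chow arrays themselves were at least 1.46 apart on the log2 scale for it. The other genes among the 15 largest differences above the floor on both arrays ran from 5.51-fold for Anxa5, an annexin gene, to 6.91-fold for Col3a1, a fibrillar collagen gene. They also included Sparc, Anxa2, 2010003K11Rik, the tubulin gene Tubb2a, the oxysterol-binding protein gene Osbpl3, C1qa, Lgals1 and Rgs16, which encodes a regulator of G protein signalling.

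All of these 15 genes were also higher with the diet at 2 months, in a pair of arrays that shares none with the 5-month pair, and 14 of them at least 2-fold. The exception was Rgs16, whose signals were 1058 on chow and 1470.3 on fast food at 2 months against 771 and 4281 at 5 months. Among genes at the floor on chow, the bounds were at least 9.57-fold for Cidec, a lipid droplet gene with a fast-food signal of 2119, and at least 7.20-fold for Gpnmb, a glycoprotein gene of lipid-laden macrophages with 1593. For Adamtsl2, a matrix gene, the bound was 5.74-fold, and for Col1a1, the main fibrillar collagen gene, 4.82-fold. A second probe set of Col1a1 had 243.8 and 432, a 1.77-fold difference. Rtel1 and Wdr36 completed the 6 largest bounds at 5.18-fold and 4.86-fold. The other probe sets of Rtel1 above the floor had log2 differences of -0.15 and 0.11, so its value rests on 1 probe set. Wdr36 was above the floor on both 2-month arrays, at 464 on chow and 355 on fast food, which is the opposite direction.

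Enzymes of steroid and sterol metabolism led the lower side. Hsd3b5, a steroid dehydrogenase gene of male mouse liver, had a signal of 11754 on chow and 15.5 on fast food, at least 53.1-fold lower. Idi1, which isomerises the building block of sterols, had 7736 and 547, a 14.2-fold difference. Cyp7b1, the oxysterol hydroxylase gene of the alternative bile acid pathway, had 18196 and 1529, an 11.9-fold difference. All of these were lower at 2 months too, with log2 differences of -3.40, -2.81 and -2.63. Ppargc1b, which encodes a coactivator of nuclear receptors and of SREBP1, had 1989 and 226, an 8.78-fold difference, and C8b, which encodes a chain of the complement membrane attack complex, had 7417 and 937. Lifr, the receptor gene for leukaemia inhibitory factor, had 5430 and 917, and Egfr, the epidermal growth factor receptor gene, had 8635 and 1683. All 6 probe sets of Egfr above the floor were lower, with log2 differences from -0.03 to -2.36.

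The remaining genes of this group were Msmo1, Sqle, Mup10, Cyp2c54, Serpina4-ps1, Rdh16f2, Ugt2b38, St3gal6 and Inpp5j. Mup10 is 1 of a family of near-identical urinary protein genes and Cyp2c54 has close relatives too, so their signals may be shared with those relatives. St3gal6, a sialyltransferase gene, had the lowest log2 difference above the floor, -4.12, but at 2 months its difference was 3.90, the opposite direction. Only 1 of its 5 probe sets was above the floor. Bounds on this side were at least 8.76-fold for Moxd1, a monooxygenase gene, and 5.83-fold for Abca2, a lipid transporter gene. For Susd4, Lmbr1 and Wdfy1 they lay between 3.30-fold and 3.61-fold. Abca2 was above the floor on the 5-month chow array alone, with 1290 there and 193 on the 2-month chow array. Its chow arrays were thus at least 2.54 apart on the log2 scale, as far as the diets, and those of Moxd1 were 1.56 apart. Of the 3 probe sets of Wdfy1 above the floor, 1 had a log2 difference of 0.03. Of 53 named genes that were at least 2-fold different and had further probe sets above the floor, 30 had 1 or more of these under 2-fold in that direction, 6 of them with the opposite sign. A value given for a gene is that of 1 probe set unless another is named, and does not speak for the others.

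**Figure D2:**
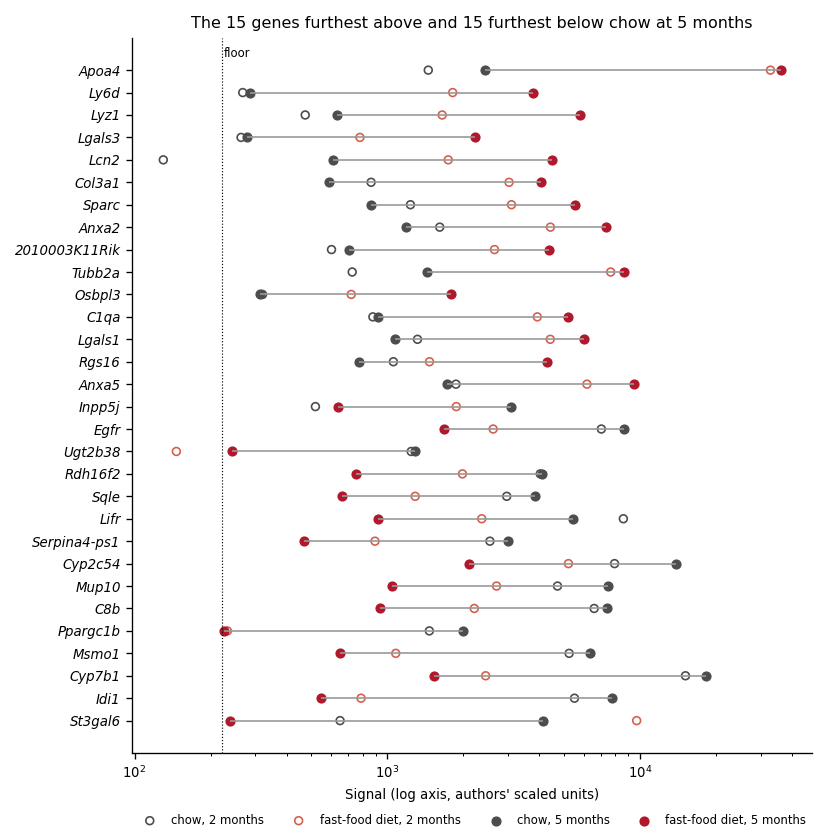
Signal on a log axis for the 15 genes furthest above and the 15 furthest below chow at 5 months among genes above the floor on both 5-month arrays, with chow in grey and fast food in red, filled at 5 months and open at 2 months. For most genes the open symbols lie the same way round as the filled ones; St3gal6 (4133 to 238 at 5 months, 651 to 9706 at 2 months) and Inpp5j lie the other way.

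The genes were followed back to the 2-month pair. Of the 381 higher genes, 105 were also at least 2-fold higher there, 201 were higher by less, and 24 were at the floor on both 2-month arrays. Another 49 went the other way by less than 2-fold and 2 by at least 2-fold. Of the 256 lower genes, 40 were at least 2-fold lower at 2 months, 140 were lower by less and 14 were at the floor, while 59 went the other way by less than 2-fold and 3 by at least 2-fold. The share of all measured genes at least 2-fold higher at 2 months was 1.98%, and that at least 2-fold lower was 1.55%. The median log2 difference of the higher genes was 1.30 at 5 months and 0.54 at 2 months, and of the lower genes -1.23 and -0.34; the first value of each pair follows from the choice of the genes. Of the higher genes, 240 also lay at least 2-fold above the 2-month chow array, and 117 of the lower genes at least 2-fold below it. The chow arrays were at least 2-fold apart for 38 of the higher genes, with chow lower at 5 months, and for 45 of the lower genes, with chow higher at 5 months. Gaps of that size the other way were seen for 7 and 0 genes. Over all measured genes 1.32% had chow lower at 5 months and 1.28% higher. The choice of the genes used the 5-month chow array and so raises the counts of 38 and 45, which cannot be compared with these shares.

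The enzymes of cholesterol synthesis were low as a group. Of 18 measured genes, 11 were at least 2-fold lower, none was higher in any amount, and the median log2 difference was -1.23 against 0.00 over all genes. The only gene without a difference was Mvk, the mevalonate kinase gene, which was at the floor on both arrays. At 2 months 6 of the 18 were at least 2-fold lower and the median was -0.76. Between the chow arrays the list stood 0.31 higher at 5 months. Measured against the 2-month chow array, the 5-month fast-food median was -0.97.

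The enzymes are given in the order of the pathway, and those other than Idi1, Sqle, Msmo1 and Nsdhl are named beyond the rule for named genes, to complete it. Hmgcs1, which makes HMG-CoA, had a signal of 14003 on chow and 4642 on fast food. Pmvk and Mvd, the kinase and decarboxylase that act next, had log2 differences of -0.63 and -0.70. Idi1 then showed the largest difference of the pathway, and Fdps and Fdft1, which build farnesyl diphosphate and squalene, had -1.33 and -1.28. Sqle, the squalene epoxidase gene, had 3842 and 659.5, a 5.83-fold difference, whereas Lss, whose product closes the sterol ring, had -1.16.

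After ring closure, Cyp51 removes a methyl group and had signals of 1711 and 447. Msmo1 and Nsdhl, which remove further methyl groups, had 6322 and 653 and 5573 and 1212, differences of 9.69-fold and 4.60-fold. The later enzymes Hsd17b7, Ebp, Sc5d and Dhcr7 had log2 differences of -1.19, -0.92, -0.54 and -1.59. The reductase genes Tm7sf2 and Lbr had -0.95 and -0.44. The largest differences of the pathway were those of isomerisation, epoxidation and demethylation, while Lbr, Sc5d, Pmvk, Mvd, Ebp and Tm7sf2 lay under 2-fold.

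**Figure D3:**
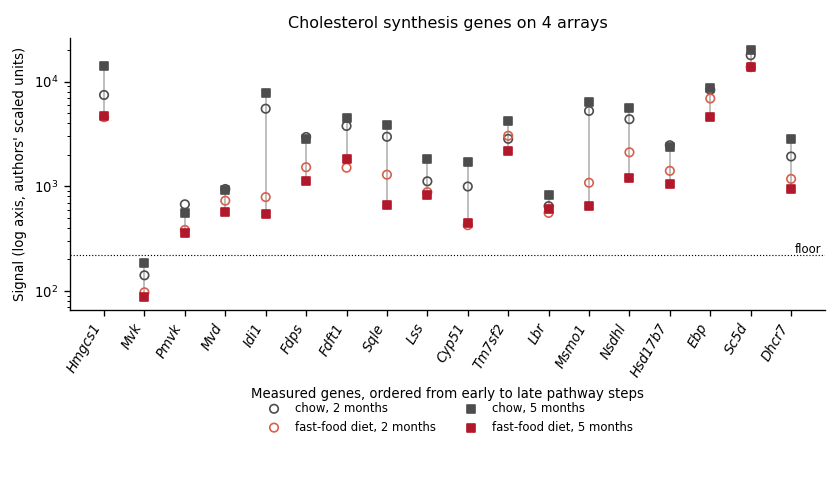
Signal on a log axis for 18 measured genes of cholesterol synthesis, ordered from early to late steps, with chow in grey and fast food in red, squares at 5 months and circles at 2 months. Squares of fast food lie below those of chow for the 17 genes above the floor, Idi1 (7736 to 547) and Msmo1 (6322 to 653) show the widest gaps, and Mvk lies under the floor on all 4 arrays.

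The promoters of 4 of these genes are shown because the genes were low together. Idi1, Msmo1 and Nsdhl had the largest differences among the genes with a promoter given. Hmgcs1 was added because its promoter holds the sterol motif TCACNCCAC, so that motif in it was selected for. RefSeq promoters of the GRCm38.p6 mouse assembly, from 250 bases before to 50 after the start of the gene, were given for 15 of the 18 genes. Capitals mark the CCAAT box, CCAAT or its reverse complement ATTGG, which the factor NF-Y binds next to SREBP sites in sterol genes, and the sterol regulatory element core TCACNCCA where it occurs. The Idi1 promoter lies at chr13:8885356-8885655 on the + strand, Msmo1 at chr8:64733529-64733828 on the - strand, Nsdhl at chrX:72918271-72918570 and Hmgcs1 at chr13:119690101-119690400, both on the + strand.
Idi1: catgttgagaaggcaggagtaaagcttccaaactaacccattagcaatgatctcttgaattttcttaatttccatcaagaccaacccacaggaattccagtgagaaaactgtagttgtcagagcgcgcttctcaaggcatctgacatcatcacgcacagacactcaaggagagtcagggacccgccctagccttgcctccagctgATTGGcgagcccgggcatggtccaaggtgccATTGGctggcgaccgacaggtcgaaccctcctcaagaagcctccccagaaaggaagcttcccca
Msmo1: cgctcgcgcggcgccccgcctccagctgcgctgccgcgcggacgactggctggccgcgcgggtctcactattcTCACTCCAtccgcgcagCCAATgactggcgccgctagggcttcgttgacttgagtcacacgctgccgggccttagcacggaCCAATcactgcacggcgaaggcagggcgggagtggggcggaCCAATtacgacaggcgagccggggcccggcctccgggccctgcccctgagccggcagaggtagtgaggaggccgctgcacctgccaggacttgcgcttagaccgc
Nsdhl: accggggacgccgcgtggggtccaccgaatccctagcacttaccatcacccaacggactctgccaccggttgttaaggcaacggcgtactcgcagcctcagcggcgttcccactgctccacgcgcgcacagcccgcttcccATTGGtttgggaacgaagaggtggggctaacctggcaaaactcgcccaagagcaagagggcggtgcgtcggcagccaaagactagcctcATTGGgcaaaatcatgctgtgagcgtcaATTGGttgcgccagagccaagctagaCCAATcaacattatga
Hmgcs1: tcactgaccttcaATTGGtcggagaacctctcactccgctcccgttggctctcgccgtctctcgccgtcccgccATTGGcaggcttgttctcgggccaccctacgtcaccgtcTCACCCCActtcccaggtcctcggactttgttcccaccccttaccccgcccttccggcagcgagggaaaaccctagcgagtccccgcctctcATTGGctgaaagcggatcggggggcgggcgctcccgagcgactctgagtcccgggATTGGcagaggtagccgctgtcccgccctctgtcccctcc
A gene can have several promoters in the table, so genes were counted as holding a motif where any of theirs did. A CCAAT box, searched on both strands, was found for 15 of the 15 genes, against 42.0% of the 11216 measured genes with a promoter and 41.1% of all 27025 genes. Counted over single promoters, 15 of 18 held it, against 36.9% of the 14253 promoters of measured genes; both Dhcr7 and Pmvk have promoters with and without it. The 4 promoters shown hold 2, 3, 4 and 4 such boxes. Of genes at least 2-fold lower at 5 months, 50.3% of 199 had such a box, and of those at least 2-fold higher 43.2% of 301. The Sp1 box GGGCGG, which is short and common in GC-rich promoters, was found for 14 of the 15 genes, against 61.9% of measured genes. The core TCACNCCA was found for 2, Hmgcs1 and Msmo1, against 4.74%, and the longer TCACNCCAC in Hmgcs1 alone, against 1.53%. The longer core contains the shorter, and the core and the CCAAT box can share the letters CCA, so the motifs are not independent. A match describes the letters in this window.

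Regulators and transporters of sterol balance were mixed, with 1 of 13 measured genes at least 2-fold higher, 2 at least 2-fold lower and a median of 0.06. Srebf2, the gene of the SREBP2 transcription factor, had signals of 1016 on chow and 428 on fast food, a 2.37-fold lower value. On a second probe set Srebf2 was 1.57-fold lower. Scap, whose product escorts SREBPs out of the endoplasmic reticulum, had 4258 and 2036. On the other side Abcg1, which encodes a cholesterol efflux pump, had 1002 and 2783, and Abcg5, which encodes a subunit of the biliary sterol pump, had 2825 and 5532, just short of 2-fold. Abcg5 and Abcg1 are known targets of the sterol-activated liver X receptors.

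In bile acid synthesis and transport, 3 of 23 genes were at least 2-fold lower and none higher, with a median of -0.51 at 5 months and -0.17 at 2 months. Besides Cyp7b1, the uptake transporter genes Slco1a1, with 7832 and 1667, and Slc10a1, with 20153 and 9416, were lower. Cyp7a1, the rate-limiting enzyme of the classic pathway, had 3068 and 2269.6, a log2 difference of -0.43, while its chow arrays were -0.99 apart. Cyp8b1, which sets the share of cholic acid, had 14191 and 8465, and Klb, the co-receptor gene for the ileal hormone FGF15, had 1969 and 988.

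Genes that make fatty acids were higher in part. Of 19 lipogenesis genes, 5 were higher by 2-fold or more and 1 was lower by as much, with a median of 0.24 at 5 months and 0.69 at 2 months. Acaca, the acetyl-CoA carboxylase gene, had 1072 and 2904, Fasn, the fatty acid synthase gene, had 6061 and 12367, and the desaturase genes Fads2 and Scd2 were 2.44-fold and 2.45-fold higher. A second probe set of Acaca had 428 and 484, a 1.13-fold difference, and another of Scd2 had 332 and 412, a 1.24-fold difference. Scd1, the main hepatic desaturase gene, was near the top of the scale on both arrays with 58665 and 57820, on its brightest probe set, while a second had 14166 and 34925, a 2.47-fold difference. Srebf1, the lipogenic SREBP gene, had 6219.8 and 9999, a 1.61-fold difference. Acss2, which makes acetyl-CoA from acetate and is an SREBP2 target, had 6383 and 2715, a 2.35-fold lower value. Over the alternatives the median of this list ran from 0.23 to 0.72.

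Storage genes of the lipid droplet held larger differences. Cidec was named above, Plin4, a droplet coat gene, had 606 and 2781, and Cidea, a relative of Cidec known from brown fat, had 421 and 1603. In all, 4 of 26 genes of triglyceride synthesis and droplets were at least 2-fold higher and none lower, with a median of 0.33. Lpin1, a phosphatidate phosphatase gene, had 1606 and 4559, but the 2-month chow array read 6414, and against that array the log2 difference of the 5-month fast-food liver was -0.49. The nuclear receptor gene Pparg, which drives several of these genes, had 257 and 475, a 1.85-fold difference.

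Among uptake genes, Fabp4, a fatty acid carrier of adipocytes and macrophages, had 346 and 1814, and Cd36, the fatty acid translocase gene, had 947 and 4626. The other probe sets of Fabp4 above the floor were higher by 1.10-fold, at least 1.53-fold and at least 1.73-fold. Lpl, the lipoprotein lipase gene, had 968 and 3881, a 4.01-fold difference against a log2 difference of 0.54 at 2 months, and Fabp2, an intestinal-type carrier, had 2849 and 8209.7. Fabp5 was the only gene of the 17 in this list at least 2-fold lower, with 6399 and 2549.8. Adipocyte markers other than Cidea lay under 2-fold, with 4 of 5 measured members between -0.28 and 0.38.

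Most lipoprotein genes other than Apoa4 lay close to chow. Apoc2, the activator gene of lipoprotein lipase, had 10910.0 and 24138, and Apom, which encodes a carrier of sphingosine phosphate in HDL, had 5513 and 2145, a 2.57-fold lower value. The list median was -0.25, but quantile normalisation turned it to 0.059, so no direction is given for this list.

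Genes of fatty acid oxidation lay close to chow. None of the 18 genes of mitochondrial oxidation and ketogenesis was 2-fold different, and their median was 0.16. The largest difference was that of Bdh1, a ketone body dehydrogenase gene, with 4632 and 8294. Respiratory chain genes were closer still, with 0 of 23 past 2-fold and a median of -0.10. Peroxisomal and omega oxidation genes had a median of 0.39, and 3 of 19 were at least 2-fold higher. These were the acyl-CoA thioesterase genes Acot2 and Acot1 and the pantetheinase gene Vnn1, which had 3539 and 8496. Between the chow arrays 3 of the 19 were also at least 2-fold higher at 5 months, and 1 was lower by as much. For Acot2 the chow arrays were at least 1.06 apart on the log2 scale. Acot1 and Acot2 are close paralogs, and Acot1 had a log2 difference of -0.34 when measured against the 2-month chow array.

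**Figure D4:**
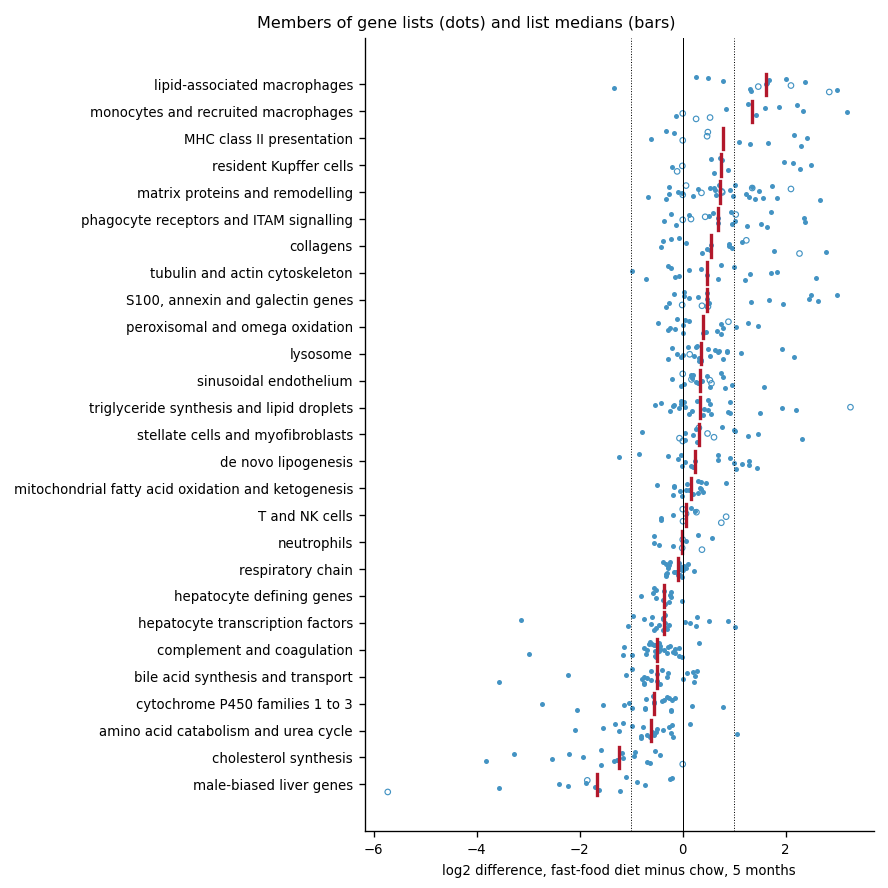
Each dot is a measured member of a gene list at its log2 difference, fast food minus chow at 5 months; open dots lay at the floor on 1 or both arrays, red bars are list medians and dotted lines mark 2-fold. Lipid-associated macrophage markers have the highest median (1.62) and male-biased liver genes the lowest (-1.67), with cholesterol synthesis next (-1.23).

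Macrophage genes formed the group with the highest median. Of 15 measured markers of lipid-associated macrophages, 11 were at least 2-fold higher and Fabp5 alone was at least 2-fold lower, with a median of 1.62 at 5 months, 0.52 at 2 months and 0.00 between the chow arrays. Lgals3 and Gpnmb led, as given above. Gpnmb was under the floor on both 2-month arrays, at 77.6 on chow and 162 on fast food. Clec7a, the beta-glucan receptor gene dectin-1, had 572 and 2983. Mmp12, the macrophage elastase gene, had 21.5 on chow and 951 on fast food, at least 4.30-fold higher, and at 2 months its fast-food signal was 264. For both Gpnmb and Mmp12 the 5-month fast-food array stood apart from all 3 others of the diet comparisons.

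Kupffer cells are the macrophages that reside in the sinusoids, and among their markers the complement C1q genes and Cd5l stood out. C1qa had 919 and 5179, C1qb 696 and 3058, C1qc 1068 and 4193, and Cd5l, which encodes a secreted scavenger protein, 2449 and 11850.0. These were all 4 of the 12 markers that were at least 2-fold higher. Another of the 3 probe sets of C1qb had 1492 and 1519. Clec4f, the marker most specific to Kupffer cells, had 1223 and 1859, a 1.52-fold difference, and Adgre1, the F4/80 gene, had 1373 and 2320.0. Timd4 and Cd163, outside the rule for named genes, were at or near the floor on both arrays. At 2 months Clec4f and Adgre1 had log2 differences of 0.97 and 1.20 and 6 of the 12 were at least 2-fold higher, so the list median was 0.99 there and 0.74 at 5 months.

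Of 12 markers of monocytes and recruited macrophages, 7 were at least 2-fold higher, with a median of 1.35 against 0.81 at 2 months. Lyz2, the macrophage lysozyme gene, had 1109.8 and 5579.5, Sirpa, which encodes a receptor for CD47, had 573 and 2654, and Cd52 had 307 and 1124. Other probe sets of Sirpa were higher by 1.29-fold and by at least 2.46-fold. Lyz1 and Lyz2 are near-identical, and their probe sets may report each other. Among genes for phagocyte receptors and their ITAM adaptors, 8 of 21 were at least 2-fold higher, including the integrin gene Itgb2, with 241 and 1228, the receptor gene Axl, with 416 and 1366, and the adaptor gene Tyrobp, with 935 and 2914. Trem2, a receptor gene of lipid-associated macrophages, was not counted as measured, because its probe sets were not above the floor on any array; at 5 months the brighter of them had 64.8 and 159.

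Antigen presentation by MHC class II was higher in its core genes. Cd74, the invariant chain gene, had 1617 and 8659, H2-Aa 1975 and 9750.5, H2-Eb1 2409 and 7588, and Ctss, the cathepsin gene that cuts the invariant chain, 1338 and 6021. In all, 6 of 12 members were at least 2-fold higher and none lower. The log2 differences of these 4 genes were 2.42, 2.30, 1.66 and 2.17 at 5 months against 1.10, 1.17, 0.49 and 0.92 at 2 months. Lysosomal genes had a median of 0.35, with 3 of 25 at least 2-fold higher, Ctss among them and with it the protease gene Lgmn and the hexosaminidase gene Hexa.

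Other leukocytes gave no such picture. None of the 11 measured T and NK cell markers, 9 B cell markers and 10 neutrophil markers was at least 2-fold different, with medians of 0.06, -0.08 and -0.01. The T cell receptor chain gene Cd3e had 185 on chow and 372 on fast food, and Nkg7, a gene of cytotoxic cells, had 64.8 and 397, both at the floor on chow. Many of these markers lie near the floor, so small numbers of such cells may not be detectable on these arrays. Because whole liver was measured, more or fewer cells of a type and more or less RNA per cell cannot be told apart for any of these groups.

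The chemokine and receptor list held 25 genes, of which 3 stood at least 2-fold above chow and 1 below. Ccl6 and Cxcl9 were at the floor on chow and had 975 and 896 on fast food, and Ccl5 had 226 and 770.4. Ccl2, the monocyte attractant gene, had 95.3 and 315, at least 1.42-fold higher, and Ccl4 had 1476 and 622, the opposite direction. In the toll-like receptor and NF-kB list 4 of 21 were at least 2-fold higher, led by the adhesion molecule gene Vcam1, with 469 and 1470.4. Tnfaip3, which encodes an inhibitor of NF-kB signalling, had 278 and 846, with 1 of its 2 probe sets above the floor in this direction. Interferon-stimulated genes had a median of 0.46, and 2 of 19, Ifi27l2a and Ifit3, were at least 2-fold higher.

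Matrix genes past 2-fold were all on the higher side. Col3a1 had 589.7 on chow and 4072 on fast food, Col1a1 66.8 and 1067, Col4a1, a basement membrane collagen gene, 902 and 3074, and Col16a1 198 and 522. Of 17 collagen genes, 5 were at least 2-fold higher and none lower, with a median of 0.55 at 5 months and 0.27 at 2 months. Col1a2, the partner chain of Col1a1 and outside the rule for named genes, had 0.37 on the probe set with the highest signal and 1.68, a bound, on another. Of 32 other matrix genes, 12 were at least 2-fold higher and none lower. Sparc, a collagen-binding protein gene, had 866 and 5533, Dcn, the decorin gene, 4457 and 15851, and Ccn2, a profibrotic growth factor gene induced by TGF-beta, 303 and 1007. The chow value of Ccn2 was 0.85 lower at 5 than at 2 months. The matrix median was 0.73 at 5 months and 0.37 at 2 months, while the chow arrays were -0.18 apart for it, lower at 5 months.

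Markers of the cells that make matrix were less uniform. Of 17 stellate cell and myofibroblast markers, 4 were at least 2-fold higher, and the median was 0.31. Vim, the vimentin gene, had 426 and 2125, Rgs5, a pericyte gene, 1059 and 2915, Lrat, the retinol esterification gene of stellate cells, 309.8 and 750.2, and Cygb, the cytoglobin gene of stellate cells, 326 and 662. Acta2, the smooth muscle actin gene used to mark myofibroblasts, had 1131 and 1367, a 1.21-fold difference at 5 months against a log2 difference of 1.13 at 2 months. The summed signal of the 17 markers was 13122 on chow and 21000 on fast food, and its part in the matrix differences was not tested. Sinusoidal endothelial markers had a median of 0.34 with 1 of 20 at least 2-fold higher, Lyve1, a hyaluronan receptor gene, which had 386 and 1155.

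Lists for annexins and their relatives, the cytoskeleton and ductal epithelium each held some genes past 2-fold. Of 20 S100, annexin and galectin genes, 7 were at least 2-fold higher and none lower. Anxa2 had 1190.3 and 7372, Anxa5 1717 and 9454, and Lgals1 1070.0 and 5984. Of 17 tubulin and actin genes, 5 were at least 2-fold higher, and 6 of the 17 lay below chow by less than 2-fold. The higher ones included Tubb2a, with 1440.3 and 8652, the thymosin gene Tmsb4x, with 4584 and 15002, and the actin gene Actg1, with 3673 and 9035. Tmsb10 had 1543 and 5520.2 on its brightest probe set, and -0.54 as log2 on the only set without a cross-hybridising ending. In the cholangiocyte and ductular list 5 of 12 were at least 2-fold higher, Ly6d and Mmp7 at the head and Cd24a with 299 and 903. Mmp7 was at the floor on chow, so its 3.72-fold is a bound. The list was chosen with earlier results of these data known. Its median was 0.34, and 0.03 against the 2-month chow array. Epcam was at least 2-fold lower, but only on a probe set of the cross-hybridising type, and Krt19, the classic duct keratin gene and outside the rule for named genes, was at the floor on both arrays.

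**Figure D5:**
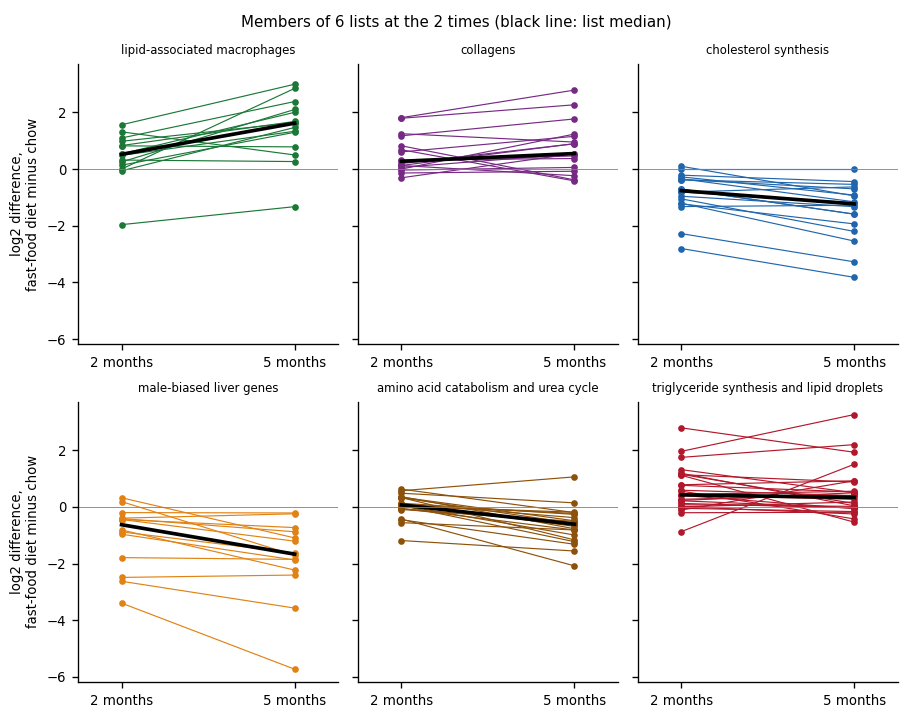
Each line joins the log2 difference, fast food minus chow, of a list member at 2 months with that at 5 months, in 6 lists, and the black line joins list medians. Medians move from 0.52 to 1.62 for lipid-associated macrophage markers and from -0.76 to -1.23 for cholesterol synthesis. They move from -0.63 to -1.67 for male-biased genes and from 0.07 to -0.61 for amino acid catabolism, while that of triglyceride storage goes from 0.42 to 0.33. No test was made between the times, and of these fast-food groups only that at 5 months has injections named.

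Male-biased hepatocyte genes had the lowest median of all lists. Of 14 measured male-biased genes, which depend on the pulsed growth hormone secretion of males, 10 were at least 2-fold lower and all 14 were lower, with a median of -1.67 at 5 months and -0.63 at 2 months. Over all measured genes, 1.83% were at least 2-fold lower at 5 months and 49.1% were lower by any amount. Beyond Hsd3b5 and Cyp7b1, the transporter gene Slco1a1 was 4.70-fold lower and Ugt2b38, a glucuronosyltransferase gene, had 1287 and 243. Susd4 was at least 3.61-fold lower. Female-biased genes were not the mirror of this. Of 10 measured, 2 were at least 2-fold higher, Cyp17a1 with 340.0 and 854 and Cyp2b9 with 488 and 1087, and the median was 0.00.

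In the growth hormone and IGF axis, 4 of 17 genes were at least 2-fold lower and 1 higher, with a median of -0.50. Igf1, the gene of the growth factor that the liver secretes, had 16934 and 8689, a 1.95-fold lower value, and Igfals, the gene of its carrier subunit in blood, 3881 and 1135. The receptor genes Lifr and Egfr, given above, were counted in this list too. Igfbp1, the insulin-repressed binding protein gene, had 1301 and 5013.9, while its chow arrays were -1.15 apart.

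Amino acid catabolism and the urea cycle were lower at 5 months in 20 of 22 measured genes, where 49.1% of all measured genes were lower, and 5 of them were at least 2-fold lower, with a median of -0.61. At 2 months the median was 0.07. Hal, which breaks down histidine, had 5693 and 1344, Agxt, which detoxifies glyoxylate, 7852 and 2666, and Cth, the cystathionine lyase gene, 12165 and 4872. Got1, an aspartate aminotransferase gene, had 5202 and 2218, and Cps1, the entry enzyme of the urea cycle, 41562 and 23590.0. The gene that was at least 2-fold higher was Glul, glutamine synthetase, with 7142 and 14874, outside the rule for named genes.

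Cytochrome P450 genes of families 1 to 3 had a median of -0.56 at 5 months and 0.08 at 2 months. Of 22, 5 were at least 2-fold lower and none higher. Cyp2c54 had 13936 and 2100.0, Cyp1a2, the caffeine-metabolising enzyme gene, 15220.0 and 3657, Cyp2c23 14359 and 4881 and Cyp2c50 32764 and 14795. Members of the mouse Cyp2c cluster share sequence, so their probe sets may report each other. Ces2a, a carboxylesterase gene, had 9147 and 2287, with a log2 difference of -1.89 at 2 months as well.

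Plasma protein genes of complement and coagulation were lower in 30 of 31 measured genes, against 49.1% of all measured genes, though at least 2-fold in only 3, with a median of -0.50. C8a and C8b, which encode chains of the same terminal complement component, had 15834 and 7132 and 7417 and 937, and F11, the coagulation factor XI gene, 1569 and 712. In the acute phase list 4 of 22 were at least 2-fold higher, with Lcn2, Orm3 and Orm2 at the head, and Hamp, the hepcidin gene, was 4.00-fold lower, with 39497 and 9881 and both of its probe sets in that direction. The chow arrays differed by 0.37 in the median of the acute phase list, more than the -0.06 between the diets. They also had 4 of its 22 genes at least 2-fold higher at 5 months, the same count as between the diets. Orm3 was at the floor on chow, so its difference is a bound. For Orm2 the chow arrays were at least 1.16 apart on the log2 scale.

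The genes that define hepatocytes, and the brightest genes as a set, were lower by a smaller amount. Of the 13 defining genes, all 13 were lower on fast food, none 2-fold, with a median of -0.35, and their summed signal was 496272 on chow and 382544 on fast food, against 461014 and 510370.0 at 2 months. The 100 brightest genes had a median of -0.31, and after loess normalisation -0.11. With loess, the medians were -0.16 for the defining genes, -0.46 for amino acid catabolism, -0.42 for P450 genes, -0.34 for complement and coagulation and -1.59 for male-biased genes. The part of this difference in the lower groups was not tested.

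Transcription factors of the hepatocyte had a median of -0.36, with 2 of 24 at least 2-fold lower and 1 higher. Hnf4a, a master regulator of hepatocyte genes, had 13660.0 and 9323, a 1.47-fold lower value with 3 of its 4 probe sets above the floor in that direction. Ppargc1b stood far below the others, whereas Ppargc1a, its relative, had 375 and 537. Onecut1 had 585 and 281, and Cebpb, an inducible factor of the acute phase, had 3532 and 7132.

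In glucose and fructose metabolism, 3 of 23 genes were at least 2-fold higher and none lower, with a median of 0.21. Pkm, the pyruvate kinase gene of non-hepatocyte cells, had 340.3 and 984, and Hk2, a hexokinase gene that healthy hepatocytes hardly use, 383 and 891, against log2 differences of 0.14 and 0.05 at 2 months. G6pc, the gene of the last step of glucose release, had 11657 and 6941. Fgf21, a hepatokine gene induced by fasting and sugar, had 553 and 605 at 5 months against 187 and 444 at 2 months, so its level on chow differed by at least 1.32 on the log2 scale between the times. Glutathione and NRF2 target genes held 3 of 22 at least 2-fold higher, Cbr3, Gstm3 and Nqo1, and 1 lower, Osgin1, whose chow arrays differed by 1.45.

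Stress, growth arrest and proliferation genes showed few differences past 2-fold. None of the 24 endoplasmic reticulum and integrated stress genes was at least 2-fold higher and 1, the serine synthesis gene Phgdh, was lower. The shares over all measured genes were 2.72% and 1.83%. Phgdh had 3887 and 1164, with its 2 probe sets above the floor in opposite directions. Of 16 p53 targets, Btg2 was at least 2-fold higher, with 925 and 1975, and Cdkn1a, the cell cycle inhibitor gene, had 544 and 1026, a 1.89-fold difference, on its brightest probe set. A second probe set of Cdkn1a had 89.0 and 1546, at least 6.98-fold higher. In the cell cycle list Ccnd1, the cyclin D1 gene, had 1709 and 3826, Mcm2 was at least 2.97-fold higher, and Tk1 was 2.16-fold lower. Of 13 circadian clock genes, 1, Cry2, was at least 2-fold lower, with 569 and 280.4, and the median was -0.18. The chow arrays were 1.36 apart for Cry2, and against the 2-month chow array its log2 difference was 0.34, the opposite direction.

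In the ERBB and ERK list, Egfr had the largest difference. The other receptor genes were Erbb3, with 4665 and 3269.9, and Erbb2, outside the rule for named genes and at the floor on both arrays. In this list 3 of 22 were at least 2-fold lower, the immediate early genes Egr1 and Ier2 beside Egfr, and the median was -0.07. Egr1 had 4143 on chow and 962 on fast food at 5 months, but 563 on chow at 2 months, and against that array it was 0.77 higher on fast food. Ribosomal protein genes, given for comparison, had 0 of 15 past 2-fold and a median of -0.10, although 1 of the 3 probe sets of Rps18 above the floor had 6024.5 and 15063.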

How the data were processed

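Liver RNA from 6 groups was measured on Affymetrix whole-genome mouse expression arrays, 1 array per group, from biotin-labelled cRNA of RNA pooled over 3 to 4 livers. The deposited signals came from MAS5, per the submitters' processing notes, with the version not given in the sources used here. These intensity values were scaled by the authors, and from the values each array's trimmed mean, leaving out 2% of probe sets at either end, is 500.002. Microarrays have no read depth.

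Of 45101 probe sets, 34958 had 1 gene symbol, 932 several and 9211 none in the platform annotation. The probe set with 1 symbol and the highest mean signal over the 6 arrays stood for its gene. Lower signals were set to 221.4, the median of all values (the 50th percentile), before the log2 transform, and the 13989 of 18194 genes above the floor on at least 1 array were counted as measured. Counts are of genes 2-fold or more apart, and 52 gene lists were described by counts and medians. The members and lists were chosen with earlier results of these data known.

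Named were the 15 genes furthest above and the 15 furthest below chow among those above the floor on both 5-month arrays, the 6 largest bounds on each side, per list its 4 members with the largest difference in size, and 22 genes always named where measured. Other genes are said to be outside this rule, and some listed genes were not analysed here. Alternatives were quantile, loess and median normalisation, a floor at the 40th or 60th percentile, no floor with a pseudocount of 32, 2 stricter filters, the mean over probe sets, omission of probe sets ending in _s_at, _x_at or _a_at, thresholds of 1.5-fold and 3-fold, and, chosen after seeing the data, the 2-month chow array as control. The counting was tested on simulated data. Python 3.11.15, NumPy 2.4.6, pandas 2.3.3, matplotlib 3.10.9, R 4.3.3 and limma 3.58.1 were used.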

Additional observations from a re-analysis of the deposited data

Results flagged for a closer look

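For 2 named genes the difference between the diets ran in opposite directions at the 2 times, at least 2-fold each way, and the difference between the times was not tested. St3gal6, a sialyltransferase gene, had a log2 difference of -4.12 at 5 months and 3.90 at 2 months. Its signals on the 6 arrays were 651 on chow, 9706 on fast food and 14878 with canertinib at 2 months, and 4133, 238 and 3686 at 5 months, so both chow arrays lay between the extremes. The chow arrays were 2.67 apart on the log2 scale. Only 1 of its 5 probe sets was above the floor, and it is of a type that can cross-hybridise. Inpp5j, an inositol phosphatase gene, had a log2 difference of -2.27 at 5 months and 1.85 at 2 months, with 519.8 on chow and 1876 on fast food at 2 months against 3085 and 639.6 at 5 months. Its chow arrays were 2.57 apart, and against the 2-month chow array the 5-month fast-food value was 0.30.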

How the results depend on the processing

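The count of 381 higher and 256 lower genes moved past 1.5 times under few settings. Without a floor and with a pseudocount it was 703 and 512, with each gene's probe sets averaged 251 and 169, at 1.5-fold 1182 and 1059, and at 3-fold 107 and 54. A floor at the 40th percentile gave 385 lower genes. The share of higher genes among those called lay between 57.9% and 61.4% under every other normalisation, floor, filter and control tried, and at 52.7% and 66.5% under the lower and the higher threshold. Quantile normalisation turned the median of the lipoprotein list to 0.059. With the 2-month chow array as control, adipocyte markers turned to a median of 0.12, and log2 differences turned to 0.30 for Inpp5j, -0.49 for Lpin1, -0.34 for Acot1, 0.34 for Cry2 and 0.77 for Egr1. Without probe sets ending in _s_at, _x_at or _a_at, Lyz1 turned to -0.26 and Tmsb10 to -0.54. The cause was not tested in any of these. Of 142 named genes at least 2-fold different, 113 kept that size and direction against the 2-month chow array, 139 with loess and 141 with quantile normalisation. Over 11 alternatives the median ran from -1.28 to -0.93 for cholesterol synthesis, from -1.85 to -1.42 for male-biased genes, from 1.33 to 1.64 for lipid-associated macrophages, from 0.52 to 0.88 for matrix genes and from 0.43 to 1.31 for MHC class II. No paired analysis was possible because each group was a single array.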

Other observations

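Hepatocytes differ along the sinusoid, and the genes of both ends were looked at with lists chosen after the values were seen. Of 12 measured periportal genes, all 12 were lower on fast food, 1 of them at least 2-fold, with a median log2 difference of -0.59 at 5 months and -0.02 at 2 months. Hal, which breaks down histidine, had the largest difference of these, -2.08. Of 17 measured pericentral genes, 14 were lower and 3 of these at least 2-fold, with medians of -0.43 and -0.05. Cyp1a2 and Cyp2c54, pericentral P450 genes, had -2.06 and -2.73. Glul, which encodes glutamine synthetase of the hepatocytes next to the central vein, went the other way, with 7142 on chow and 14874 on fast food. Rhbg, an ammonium transporter gene of the same cells, was below the floor on chow, at 65.3, and read 418 on fast food. Of the other pericentral members, Slc1a4 was higher, with a bound of 0.29, and the rest were lower. Among these, outside the rule for named genes, Lgr5 had -0.39, Axin2 -0.43 and Oat -0.44. With loess normalisation the medians were -0.46 and -0.36.

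Beside St3gal6 and Inpp5j, 3 genes outside the rule for named genes were at least 2-fold different in opposite directions at the 2 times. Smpd2, a sphingomyelinase gene, had 339 on chow and 1061 on fast food at 5 months against 985 and 173 at 2 months. Ercc1, a DNA repair gene, had 638 and 1306 against 1471 and 659, and Lncppara 451 and 179 against 119.8 and 821. For all of them the chow arrays were at least 2-fold apart.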
